A study of Mus musculus with 2 samples.

Results

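Transcripts of brain endothelial cells and pericytes were examined in the granule cell layer of mouse cerebellum, the inner layer of the cerebellar cortex that holds mostly granule neurons. The set consisted of 10 genes, and its members were all probe sets to which the array's annotation assigns 1 of these genes and no other. Of the 10 genes, 9 were measured this way, out of 18193 named genes, by 21 probe sets. The remaining gene, Ly6c1, which encodes a small surface protein of brain endothelium, had no probe set of its own. Its 1 probe set is also assigned to another gene and was left out.

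The samples were 2 pieces of granule cell layer from C57BL/6J male mice aged 8 weeks, described as intact, with no treatment named. The layer was cut by laser from 12 μm sagittal sections, and roughly 1 ng of its total RNA was amplified in 2 cycles and hybridized to Affymetrix arrays. Both titles name animal 1, so it is not known whether more than 1 animal was used, and the spread between the samples, called sample 1 and sample 2 here, may be technical. There was 1 group, so nothing could be tested between conditions and no p-values appear.

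Endothelial cells line the brain capillaries and are sealed by tight junctions into the blood-brain barrier, which nutrients cross through dedicated transporters. Pericytes lie on the outside of the capillary wall, within its basement membrane, and are recruited by platelet-derived growth factor from the endothelium. Vessels run through all layers of the cerebellar cortex, so a piece of granule cell layer cut by laser takes in capillaries with the neurons. In such bulk samples fewer cells of a type and less RNA per cell cannot be told apart.

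Each array gave 45101 intensities in array units, with a median of 7.9 in sample 1 and 8.3 in sample 2. A gene, represented by its brightest probe set, is called above background when it exceeded the 95th percentile of 82 genes typical of other organs in both samples. This threshold was 17.6 in sample 1 and 23.7 in sample 2. All 10 measured granule neuron markers passed it, among them Gabra6, a GABA-A receptor subunit found mainly in these neurons, at 8189 and 8327. Intensities of different probe sets depend on their probes, so genes are not ranked by abundance.

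Of the 9 measured endothelial and pericyte genes, 6 were above background: Slc2a1, Itm2a, Cldn5, Rgs5, Vtn and Pdgfrb. The share over all named genes was 40.6%. Flt1 passed in sample 1 alone, and Cdh5 and Pecam1 passed in neither sample. The genes were chosen with earlier results of these arrays known, so the count describes the set and supports nothing. At a stricter threshold, the 99th percentile of the background genes, Slc2a1, Itm2a, Cldn5 and Rgs5 passed, against 22.8% of all genes.

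The barrier transporter of the set was above background on each of its probe sets. Slc2a1 encodes GLUT1, which carries glucose from blood across the endothelium into the brain. Its brightest probe set, 1434773_a_at, read 703 in sample 1 and 790 in sample 2 (747 ± 61.9, SD, n = 2). The second, 1426599_a_at, had 261 and 297, and 1426600_at had 21.9 and 34.6. All 3 probe sets were above the background threshold for probe sets, 13.9 in sample 1 and 18.8 in sample 2, and all 3 were higher in sample 2, by 0.17 to 0.66 on the log2 scale. No other gene of the set with more than 1 probe set had all of them above background. Astrocytes also make GLUT1, and 9 of 10 astrocyte markers were above background, with summed intensities of 7984 and 7961 and none at 0. Their part in the Slc2a1 signal was not tested.

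**Figure D1:**
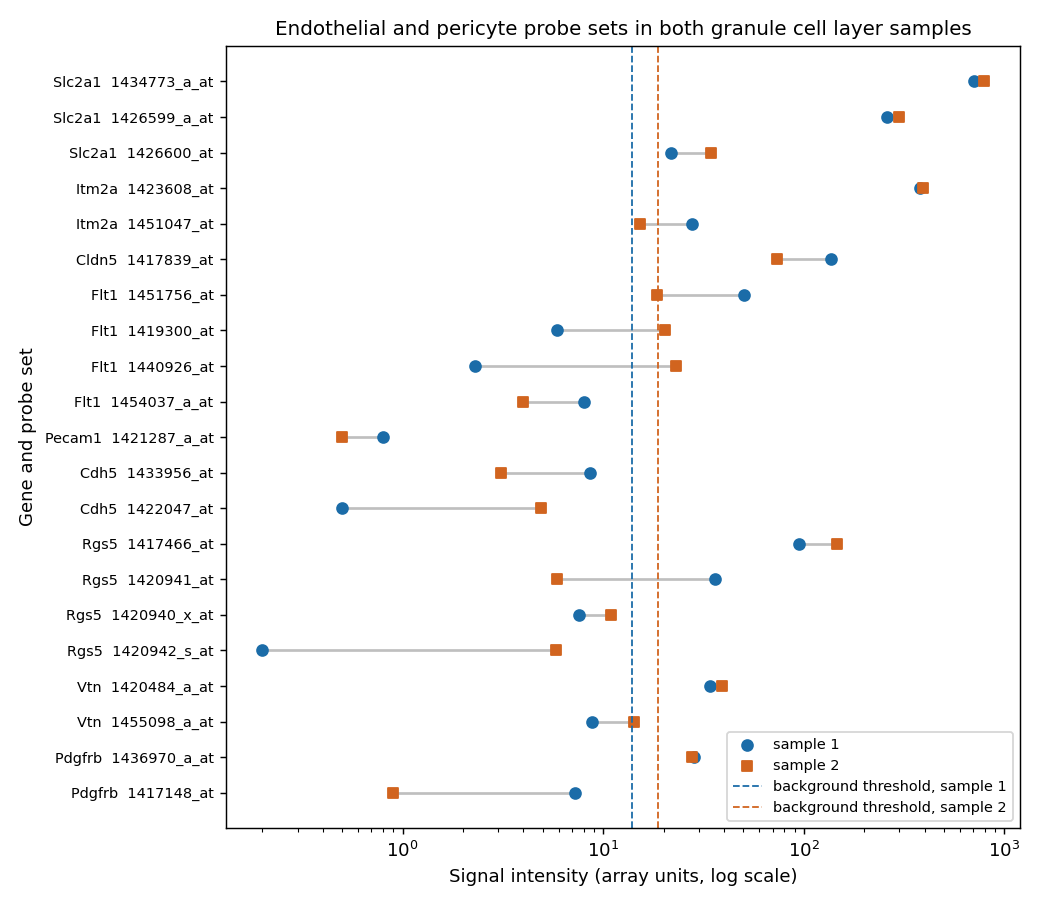
Signal intensity (log scale, array units) of the 21 probe sets of the 9 measured genes, with a circle for sample 1, a square for sample 2, a grey line joining them, and dashed lines at each sample's background threshold for probe sets (13.9 and 18.8). The 3 probe sets of Slc2a1 lie to the right of both lines, while those of Cdh5 and Pecam1 lie to the left of both.

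The junction and adhesion genes of the endothelium gave unequal signals. Cldn5 encodes claudin-5, the main claudin of endothelial tight junctions, and its 1 probe set had 136 in sample 1 and 73.9 in sample 2 (105 ± 44.1, SD, n = 2). It was above background in both samples and 0.88 higher in sample 1 on the log2 scale, short of 2-fold. Cdh5 encodes VE-cadherin, the cadherin of endothelial adherens junctions. Its probe set 1433956_at had 8.6 and 3.1, and 1422047_at had 0.5 and 4.9, so both were below the threshold in both samples and were ordered oppositely between them. Pecam1, which encodes the adhesion molecule CD31 at endothelial cell contacts, had 0.8 and 0.5 on its 1 probe set. In sample 1 only 19 of the 82 background genes were below Pecam1, and in sample 2 only 8. Neither VE-cadherin nor CD31 transcripts were thus detectable with these probe sets, while those of the claudin of the same cell contacts were.

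Flt1 encodes VEGF receptor 1, an endothelial receptor tyrosine kinase that binds VEGF-A and placental growth factor. Its 4 probe sets did not point one way. Probe set 1451756_at had 50.2 in sample 1 and 18.5 in sample 2, whereas 1419300_at had 5.9 and 20.4, and 1440926_at had 2.3 and 23.2. The fourth, 1454037_a_at, had 8 and 4. Each of the first 3 exceeded the probe set threshold in 1 sample, and none did in both. On the brightest probe set Flt1 was 1.44 higher in sample 1 on the log2 scale, and averaging its 4 probe sets gave a difference of 0.01. With the 90th percentile of the background genes as the threshold, Flt1 passed in both samples as the 7th gene of the set, against 47.4% of all genes. The same held with olfactory receptor genes as background, against 52.5%.

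Itm2a encodes an integral membrane protein whose transcript is enriched in brain microvessels. Probe set 1423608_at had 380 and 395 (387 ± 10.2, SD, n = 2), a log2 difference of −0.05, and both samples lay above all 82 background genes. Its second probe set, 1451047_at, had 27.6 and 15.3 and passed in sample 1 alone.

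The 3 pericyte genes of the set were all above background on 1 probe set each. Pdgfrb encodes the receptor through which pericytes respond to platelet-derived growth factor, and 1436970_a_at had 28.5 and 27.8 (28.1 ± 0.495, SD, n = 2). Its other probe set, 1417148_at, had 7.2 and 0.9, below the threshold in both samples. Pdgfrb lay near the threshold, above 80 of the 82 background genes in sample 1 and 78 in sample 2, and it did not pass when its probe sets were averaged. Rgs5, a regulator of G protein signalling typical of pericytes, had 94.9 and 147 on 1417466_at (121 ± 36.6, SD, n = 2). Its probe set 1420941_at had 36.3 and 5.9 and passed in sample 1 alone. The remaining pair of Rgs5 probe sets, which may match several transcripts, stayed between 0.2 and 10.9. Vtn encodes vitronectin, an adhesive glycoprotein whose brain transcript comes mainly from pericytes. It had 34 and 39.3 on 1420484_a_at (36.7 ± 3.75, SD, n = 2), and 8.8 and 14.3 on 1455098_a_at, which did not pass.

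Probe sets of one gene often differed in outcome. Of the 21 probe sets 8 (38.1%) were above background in both samples, against 34.2% of all probe sets with 1 gene symbol. Of the 7 genes with more than 1 probe set, 4 (Itm2a, Rgs5, Vtn and Pdgfrb) had some that passed and some that did not, as had 48.5% of 9010 such genes on the array. Cdh5 and Flt1 had none that passed. The Pdgfrb and Vtn calls rest on probe sets of the _a_at kind. Without _a_at, _s_at and _x_at probe sets, Vtn and Pecam1 had no value left and Pdgfrb did not pass. Of the 7 genes left, 4 remained above background: Slc2a1, Itm2a, Cldn5 and Rgs5. The count over all named genes fell as well, from 7378 to 6319. Slc2a1 then rested on its dimmest probe set.

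The samples differed little in Slc2a1 and Itm2a and more in Cldn5 and Rgs5. Sample 1 was higher for 5 of the 9 genes and sample 2 for 4, of which Itm2a changed sign under median scaling (0.02). The median log2 difference (sample 1 minus sample 2) was 0.04, against −0.05 over all named genes. Of the 7 genes above background in at least 1 sample, 1 (Flt1) differed at least 2-fold, against 21.9% of all such genes. Slc2a1 (−0.17), Itm2a (−0.05), Cldn5 (0.88) and Rgs5 (−0.63) lie in the range of intensities from 100 to 1000, where the SD of the log2 difference over 3389 genes was 0.54. Cldn5 and Rgs5 thus differed by more than 1 such SD, in opposite directions. Their mean intensities, 105 and 121, lie near the lower end of this range. Both differences are smaller than the SD of 1.11 over genes between 20 and 100. Vtn (−0.21), Pdgfrb (0.04) and Flt1 lie between 20 and 100, where the SD was 1.11 over 4539 genes and 28.0% of the genes differed at least 2-fold. Cdh5 (1.47) and Pecam1 (0.68) lie under 20, where the SD was 2.11, so their differences are within the scatter of dim genes. With 1 array on each side, none of these differences has a replicate check.

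**Figure D2:**
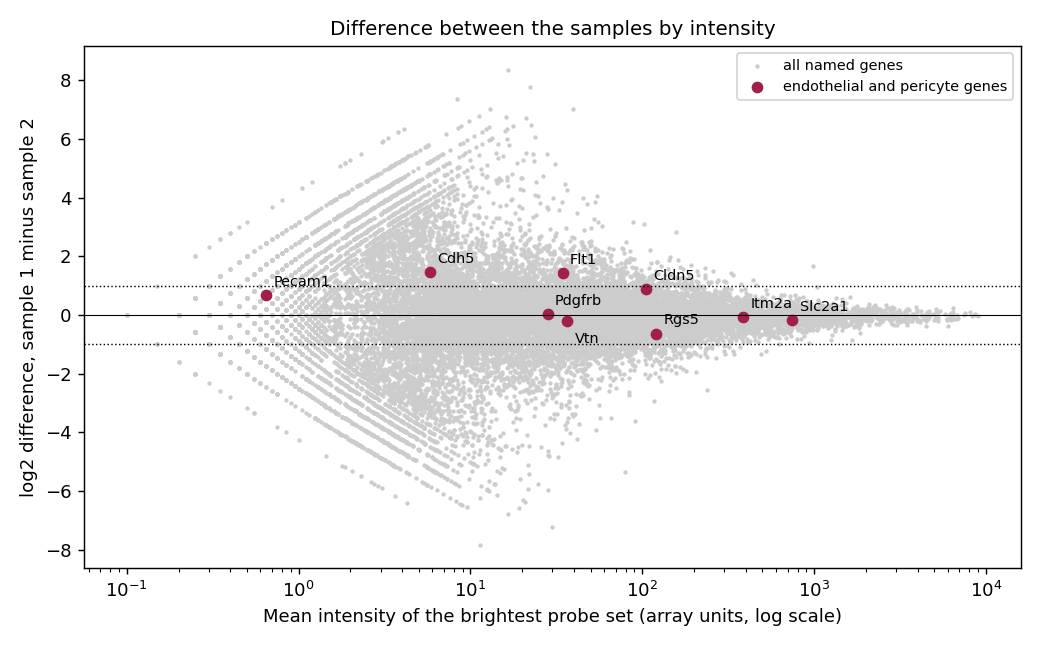
Log2 difference between the samples (sample 1 minus sample 2) against the mean intensity of a gene's brightest probe set (log scale, array units) for 18193 named genes in grey and the 9 endothelial and pericyte genes in red, with dotted lines at 2-fold. The scatter widens toward low intensity, and Flt1 and Cdh5 lie beyond the 2-fold line.

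Wider lists of vascular genes placed these members among other genes linked to vessels, not all of them genes of endothelial cells or pericytes. The 10 lists held 167 genes, of which 161 were measured and 43 (26.7%) were above background in both samples. Without the members of the set it was 37 of 152 (24.3%), a lower share than the 40.6% over all named genes. A further 24 of these 152 passed in sample 1 alone, and 6 in sample 2 alone. The threshold was lower in sample 1. Over all 18193 named genes, 8650 exceeded the threshold of sample 1, 7958 that of sample 2 and 7378 both. Many listed genes are also expressed by neurons or glia, so a signal of one of them need not come from vessels.

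Transporters of the barrier were the vascular list with the highest share above background, 9 of 16 genes (56.25%), against 40.6% of all named genes. Of the other transporters 2 passed in sample 1 alone, 2 in sample 2 alone and 3 in neither. Without the member Slc2a1, 8 of 15 passed in both samples. The count depended on the threshold. At the 99th percentile of the background genes it was 4 of 16, against 22.8% of all genes. With olfactory receptor genes as background it was 14 of 16, against 52.5%. Slc7a1, which carries cationic amino acids, had 317 and 380. The transferrin receptor gene Tfrc had 235 and 153, and Slco1a4, an organic anion transporter of brain endothelium, 170 and 199. Slc3a2, the heavy chain of the large neutral amino acid transporter, had 79.2 and 176. Slc22a8 (11.5 and 6.9) and Slc38a5 (12.6 and 1.1) were below the threshold in both samples. Of the junction genes 5 of 13 (38.5%) passed. Cldn12 had 894 and 834, the scaffold gene Tjp1 (ZO-1) 134 and 100, Jam2 59.1 and 76.8, and the tricellular junction gene Marveld2 53.2 and 52.2. Lsr (0.6 and 2.1), of the same tricellular contacts, was near the bottom of the list with Pecam1.

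Of 17 receptors of vascular growth factors 4 (23.5%) were above background, against 40.6% of all named genes. In sample 1 taken alone 7 were, against 8650 of 18193 named genes. The count depended on the threshold, as did the share over all genes. It was 9 of 17 at the 90th percentile of the background genes, against 47.4% of all genes. With olfactory receptor genes as background it was 11 of 17, against 52.5%. The BMP receptor gene Bmpr2 had 907 and 1090, the VEGF co-receptor gene Nrp1 33.9 and 46.6, and the endothelial phosphatase gene Ptprb 33.5 and 36.6. Pdgfrb was the fourth. Notch1 had 47.2 and 20.1, passing in sample 1 alone as Flt1 did. The angiopoietin receptor relative Tie1 (0.2 and 0.3) and the ephrin receptor Ephb4 (0.7 and 0.5) were lowest. Of the ligands 5 of 13 (38.5%) passed, and 8 in sample 1 taken alone. Pdgfa had 68.2 and 49.3, Vegfc 40.2 and 57.8, and Angpt1, the activating ligand of the Tek receptor, 29.1 and 55.3. Vegfa had 23.8 and 30.3 and Vegfb 19.1 and 28.9. Pdgfb, the endothelial ligand of Pdgfrb, had 3.9 and 4.6, and Tgfb1 had 3.6 and 6.3.

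Of 17 transcription factors of endothelium, 3 (17.6%) passed, against 40.6% of all named genes. The Notch target Hey1 had 238 and 189, the hypoxia-inducible factor gene Epas1 158 and 231, and Klf4 27.6 and 53.2. The ETS factor Elk3 had 18.2 and 13.5 and Sox17 had 11.4 and 20.2. Sox18 (6.6 and 0.5) and Foxf2 (7.1 and 0.3) were lowest. Among 28 other endothelial genes 10 (35.7%) passed. In sample 1 taken alone it was 17, against 8650 of the 18193 named genes. Besides Itm2a, the highest were the cell cycle regulator Rgcc (484 and 580), the carbonic anhydrase Car4 of capillary surfaces (412 and 327), the scaffold gene Slc9a3r2 (241 and 178) and the phospholipid transfer protein gene Pltp (157 and 128). The adhesion gene Icam2 (0.7 and 0.5) and Cd34 (0.4 and 0.3) were at the bottom of the list, as Pecam1 was in the junction list.

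Of 19 pericyte genes 3 (15.8%), Rgs5, Vtn and Pdgfrb, were above background in both samples, against 40.6% of all named genes. Of the 16 measured pericyte genes outside the set, 0 were. Ifitm1 had 25.2 and 11.9, passing in sample 1 alone. The Notch receptor gene Notch3, typical of mural cells, had 14.4 and 12.2. Cox4i2 (1.3 and 3.4) and the aminopeptidase N gene Anpep (0.7 and 0.3) were lowest. With olfactory receptor genes as background 5 of 19 pericyte genes passed, the 3 of the set with Ifitm1 and Notch3, against 52.5% of all genes.

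**Figure D3:**
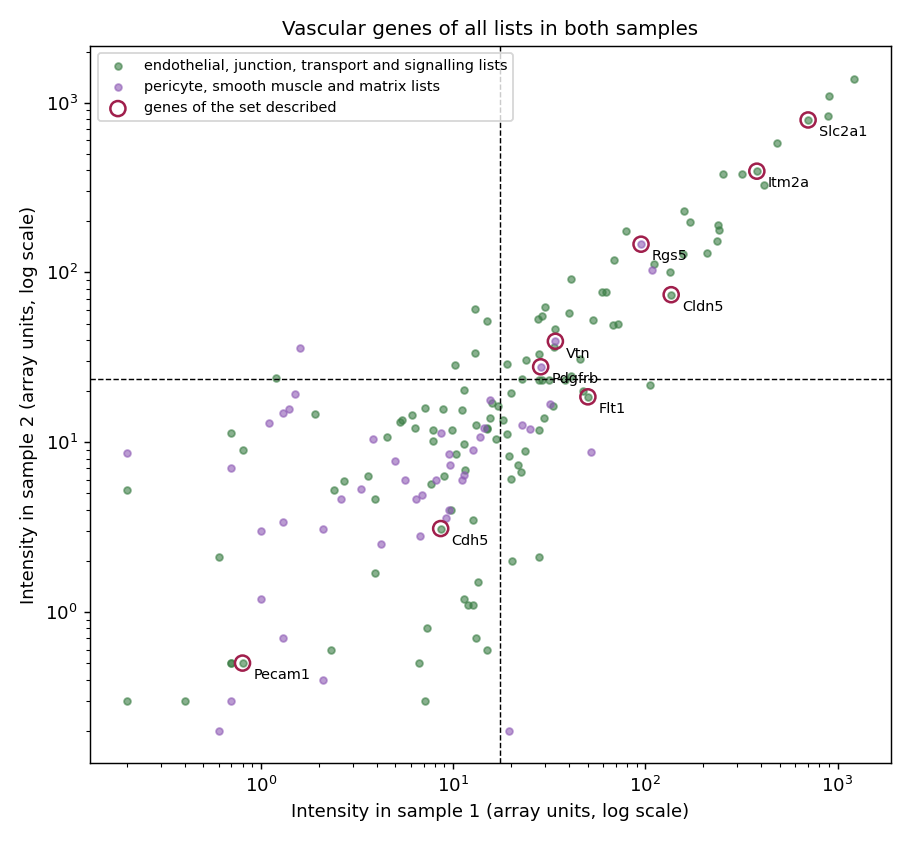
Intensity in sample 1 against sample 2 (both log scale, array units) of the 161 measured vascular genes, in green for endothelial, junction, transport and signalling lists and purple for pericyte, smooth muscle and matrix lists, with the members of the set circled and dashed lines at the gene thresholds (17.6 and 23.7). The 43 genes at the upper right exceed both thresholds, and Pecam1 and Cdh5 lie at the lower left.

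The last of the vascular lists held the signalling that maintains the barrier. In this pathway Wnt7a and Wnt7b from neural cells, or norrin, act through Fzd4 and its co-receptors on endothelial beta-catenin. Of 14 genes measured, 4 (28.6%) passed, against 40.6% of all named genes, and these 4 are not specific to endothelium. Wnt7b had 7.8 and 11.8, the norrin gene Ndp 19.9 and 6.1, and Fzd4 1.2 and 24, chosen after their values were seen, and none of these passed in both samples. The beta-catenin gene Ctnnb1 had 1220 and 1386, Wnt7a 252 and 379, and the pathway targets Apcdd1 and Axin2 209 and 130, and 41.1 and 24.5. The co-receptor gene Lrp6 had 31.4 and 23.3, passing in sample 1 and falling just short in sample 2. Adgra2 (11.4 and 1.2) and Lrp5 (2.3 and 0.6) were lowest.

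Marker lists of other cell types place the vascular lists among their neighbours in the cut tissue. The shares above background were 10 of 10 for granule neurons, 8 of 9 for Purkinje cells, 9 of 10 for astrocytes, 7 of 9 for oligodendrocytes and 4 of 10 for microglia. Over all named genes the share was 40.6%. Of 10 blood cell markers only 6 were measured, and 0 of these passed in both samples (1 in sample 1 taken alone), with summed intensities of 57.3 and 55.3. The blood markers Slc4a1, the erythrocyte anion exchanger, and Hba-a1, a globin gene, had 35.4 and 22.5, and 6.6 and 5.5. Choroid plexus and meninges gave 1 of 10, the prostaglandin synthase gene Ptgds at 1270 and 1230, and the other 9 passed in neither sample. These shares are descriptions, since the lists differ in how specific their genes are and in their probe sets.

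**Figure D4:**
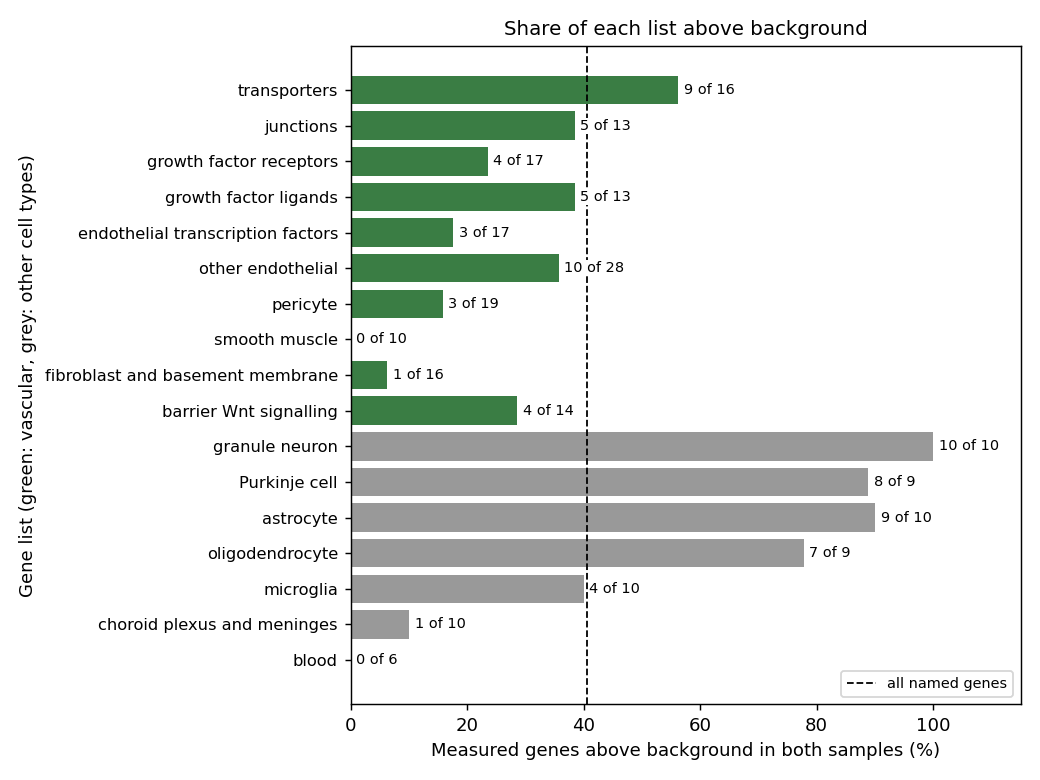
Share (%) of the measured genes of each list above background in both samples, with the count beside each bar, green for vascular lists and grey for markers of other cell types; the dashed line marks the 40.6% of all named genes. Transporters (9 of 16) are the vascular list beyond the line, and pericyte genes stand at 3 of 19.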

How the data were processed

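Per array, the authors deposited linear signal intensities of its probe sets, which came from GCOS (Affymetrix operating software) according to the submitters' processing notes. Its version, its settings and the scaling target were not given there. No detection calls were used here. Values were used as deposited. Before log2, the 2 zeros of sample 1 and the 1 zero of sample 2 were set to 0.1.

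Probe sets were named from the platform annotation, which gave 1 symbol for 34958, several for 932 and none for 9211. By gene ID 34754 matched RefSeq's gene table (GRCm38.p6), which updated symbols. Genes were represented by their brightest probe set. The background list held 90 genes, of which 82 were measured by 116 probe sets. By construction a few exceed the threshold, here 4 genes in both samples. The number of arrays limits the precision.

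The members and the gene lists were chosen with earlier results of these data known. Named were all members, up to 5 highest and 2 lowest genes of each vascular list by mean log2 intensity, and up to 2 highest of each list of other cells. Alternatives were other thresholds, background genes, scalings, probe set rules and each sample alone. Analyses used Python 3.11.15, numpy 2.4.6 and pandas 2.3.3.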

Additional observations from a re-analysis of the deposited data

How the results depend on the processing

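No paired analysis was possible because the samples form 1 group. Of 211 main counts and medians under the alternatives, 171 stayed within 1.5 times or within the spread and 40 moved; of 106 values of single members, 99 stayed and 7 moved. None of the differences of 2-fold or more changed sign, but under median scaling the small difference of Itm2a turned from −0.05 to 0.02 and the median over all genes from −0.05 to 0.03. The number of members above background ranged from 4 to 7, and none of these settings moved it by over 1.5 times. The 99th percentile threshold left 4156 genes above background, 696 genes and 0 members at least 2-fold different, 5 member probe sets, and 4 transporters, 3 junction genes, 1 receptor, 0 ligands, 6 other endothelial, 1 pericyte and 2 microglial genes. The 90th percentile was passed by 47.4% of all genes, and gave 9 receptors, 2 smooth muscle and 1 blood gene. With olfactory receptors as background 52.5% of all genes passed. Olfactory receptors as background gave 14 transporters, 8 junction genes, 11 receptors, 6 transcription factors, 19 other endothelial, 5 pericyte, 3 smooth muscle, 3 matrix, 2 choroid and meninges and 1 blood gene, with 3546 genes and 2 members at least 2-fold different. With log2(value + 16) these were 968 and 0. The mean of all probe sets gave 2 receptors and 0 members at least 2-fold different. Without _x_at, _s_at and _a_at probe sets, 6319 genes, 4 member probe sets and 1 pericyte gene passed. The median difference of the 7 members left was 0.88. Taken alone, sample 1 had 8650 and sample 2 had 7958 of the 18193 named genes above its threshold. With either sample alone the counts ranged from 0 to 1 for blood, 2 to 3 for matrix and 5 to 8 for ligands. For receptors they ranged from 5 to 7, for other endothelial genes from 11 to 17 and for smooth muscle genes from 0 to 2. The causes were not tested. Below an intensity of 20, 57.1% of genes differed at least 2-fold between the samples, which limits what can be read from dim probe sets.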

Other observations

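Genes of vascular smooth muscle, the contractile cells around arteries and arterioles, were mostly below the background threshold. Of 10 smooth muscle genes, 0 were above background in both samples, against 40.6% of all named genes, and 2 passed in sample 1 taken alone. At the 90th percentile of the background genes 2 passed in both samples, against 47.4% of all genes. With olfactory receptor genes as background 3 did, against 52.5%. The smooth muscle actin gene Acta2 had 31.8 and 16.7, the tropomyosin gene Tpm2 22.9 and 12.6, and the myosin light chain gene Myl9 15.6 and 17.8. Mylk had 11.1 and 6.0, and Des had 8.1 and 6.0. The contractile genes Tagln (2.1 and 0.4) and Cnn1 (0.6 and 0.2) were lowest. Of 10 smooth muscle genes 8 were higher in sample 1, and 2 differed at least 2-fold. Most had a mean intensity below 20, where 57.1% of all named genes differed at least 2-fold, so no sample difference is read from this.

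Of 16 genes of perivascular fibroblasts and the basement membrane, 1 (6.25%) passed in both samples, against 40.6% of all named genes. This was Sparc, a matrix-binding protein gene that glia also express, at 108 and 103. In sample 1 taken alone 3 passed, and in sample 2 taken alone 2. The perlecan gene Hspg2 had 51.9 and 8.8 and passed in sample 1 alone. Lama5 had 13.7 and 10.7, the fibrillar collagen gene Col1a2 12.6 and 9.0, and Col4a1, a main collagen of the capillary basement membrane, 8.6 and 11.3. Col3a1 (0.2 and 8.6) and Nid2 (1.3 and 0.7) were lowest.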
